A study of Homo sapiens with 60 samples.

Results

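Expression of 10 genes for the synthesis of serine, one-carbon units, asparagine and proline was measured by RNA sequencing in HT29 cells, an established human colorectal adenocarcinoma line, given herbal extracts. The genes were PHGDH, PSAT1, PSPH, SHMT1, SHMT2, MTHFD2, MTHFD1L, ALDH1L2, ASNS and PYCR1. They were taken by name, as 10 of the 60675 gene identifiers in the deposited table, with earlier results of these data known. All 10 passed the filter on low counts, as did 16022 genes in all. Cells were cultured for 24 h with 70% ethanol extracts of 6 single herbs or of 2 formulas. The herbs, named here with the one that shared its library set, were Coptidis Rhizoma with Zizyphi Fructus, Citri Unshius Pericarpium with Cimicifugae Rhizoma, and Bupleuri Radix with Aconiti Lateralis Radix Preparata. The formulas, Yijung-tang and Banhasasim-tang, shared another set. Sets were read here from the start of the sample codes, D1 for vehicle and 11 to 14 for the extracts. All sample titles name the same batch, BatchD, and what the codes stand for is not stated. The low, medium and high dose was 20, 100 and 500 µg/mL. Coptidis Rhizoma instead had 12.8, 64 and 320 µg/mL, and Bupleuri Radix had 12.4, 62 and 310 µg/mL. Those lower doses were set from each extract's inhibitory concentration, per the series design. The reference cells received vehicle, DMSO, at 0.1% per the sample labels and 2% per the series design. Banhasasim-tang had 1 library at each dose, Yijung-tang, Zizyphi Fructus and Coptidis Rhizoma had 2, and the remaining extracts and vehicle had 3, which made 25 groups and 60 libraries. The labels name no separate cultures, so a p-value reflects the spread among libraries alone, which may be technical.

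Serine is made from a glycolytic intermediate by PHGDH, PSAT1 and PSPH acting in turn. SHMT2 in mitochondria and SHMT1 in the cytosol split serine into glycine and a one-carbon unit carried on folate. In mitochondria MTHFD2 and MTHFD1L turn that unit into formate, which leaves for purine and thymidylate synthesis, while ALDH1L2 oxidises it to carbon dioxide. ASNS makes asparagine from aspartate and glutamine, and PYCR1 carries out the last step of proline synthesis in mitochondria. Many of these genes are known targets of ATF4, a transcription factor whose translation rises when amino acids are scarce or the endoplasmic reticulum is stressed. Tumour cells, those of colorectal cancer among them, often express the serine and mitochondrial folate enzymes strongly.

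The libraries held 18.1 to 36.7 M counts, with a median of 24.1 M. The floor of detection, set at 3 counts, was 0.0817 to 0.166 counts per M counts of the library (CPM), before any scaling. The epithelial markers EPCAM and KRT8 ran from 472 to 608 and from 3310 to 7720 CPM, whereas the intestinal factors CDX1 and CDX2 stayed at or below 1.7 and 9.87 CPM. COL1A2, COL3A1, PDGFRB, PTPRC, CD3E, CDH5 and ALB, markers of other cell types, had medians of 0 CPM, and COL1A1, CD14 and PECAM1 had medians of 1.28, 3.33 and 1.61 CPM. Zizyphi Fructus medium replicate 3 stood apart. Its log2 CPM correlated at 0.956 with the mean of the other libraries of its extract, against 0.981 to 0.998 for the other libraries in theirs. In that library 9 of the 10 genes lay below, and ALDH1L2 above, all 5 other Zizyphi Fructus libraries. The share of all genes outside those 5 was not counted, so this is not read as particular to the 10. Results are therefore also given without this library. CPM printed for genes are per M counts of the tested genes, scaled by edgeR's TMM factor. That factor was 0.567 in this library and 0.931 to 1.04 in the others. ALDH1L2 had 15 counts of 22.5 M there, against 17 of 21.9 M in medium replicate 2. Its place above the other libraries thus rests on the scaling. Vehicle libraries form a set of their own by sample code. In a contrast with vehicle, the extract and the set therefore cannot be told apart. High against low dose, and the pair of extracts sharing a set, lie within a set. Scaled CPM remain relative to the RNA of their library, so fewer cells and less RNA per cell cannot be told apart.

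In vehicle, 9 of the 10 genes were clearly expressed. Per kilobase of merged exon, PSAT1 stood highest at 48.3 ± 1.1 CPM per kb (SD, n = 3), with SHMT2 at 48.0 ± 2.8 CPM per kb. These neighbours do not differ beyond their spread. The order depends on the divisor, which merges the exons of every annotated transcript, 2188 bases for PSAT1 and 4838 for SHMT2. Before division SHMT2 had 232 CPM and PSAT1 106 CPM. PYCR1 followed at 39.3 ± 0.65, MTHFD2 at 30.7 ± 1.1, PSPH at 16.7 ± 0.76 and ASNS at 13.4 ± 0.6 CPM per kb. SHMT1 at 9.47 ± 0.15 and MTHFD1L at 9.06 ± 0.67 CPM per kb again overlapped within their spread. PHGDH, the entry enzyme, stood at 3.42 ± 0.28 CPM per kb over an exon length that includes every annotated transcript. ALDH1L2 was at 0.0485 ± 0.011 CPM per kb and gave 6 to 30 counts per library in the whole series, so its differences are poorly resolved. Named pseudogene copies of the genes held at most 0.0816% of their gene's counts.

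In RefSeq's promoter table (GRCh38.p14), which gives 250 bases before to 50 after a start, 6 of the 10 genes were found. Neither PSPH, SHMT2, ALDH1L2 nor PYCR1 was matched. The promoters of 3 genes that rose in these data and of SHMT1, which fell, are given so that sequence can be set beside response. Capitals mark TGATGNAA, the core of the composite C/EBP-ATF element through which ATF4 is known to act, searched on both strands.
ASNS, chr7:97872359-97872658, minus strand: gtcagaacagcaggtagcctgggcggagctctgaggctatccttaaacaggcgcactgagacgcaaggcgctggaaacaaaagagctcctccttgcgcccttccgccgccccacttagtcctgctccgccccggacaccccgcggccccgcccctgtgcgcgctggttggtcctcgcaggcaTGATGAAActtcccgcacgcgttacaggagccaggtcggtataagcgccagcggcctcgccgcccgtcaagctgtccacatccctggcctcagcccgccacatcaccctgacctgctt
MTHFD1L, chr6:150866236-150866535, plus strand: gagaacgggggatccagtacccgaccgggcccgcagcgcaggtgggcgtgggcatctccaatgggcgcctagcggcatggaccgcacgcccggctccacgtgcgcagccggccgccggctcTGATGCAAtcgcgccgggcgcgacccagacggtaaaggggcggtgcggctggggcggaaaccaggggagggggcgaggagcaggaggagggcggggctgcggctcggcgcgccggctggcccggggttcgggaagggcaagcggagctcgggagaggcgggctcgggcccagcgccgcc
PSAT1, chr9:78296875-78297174, plus strand: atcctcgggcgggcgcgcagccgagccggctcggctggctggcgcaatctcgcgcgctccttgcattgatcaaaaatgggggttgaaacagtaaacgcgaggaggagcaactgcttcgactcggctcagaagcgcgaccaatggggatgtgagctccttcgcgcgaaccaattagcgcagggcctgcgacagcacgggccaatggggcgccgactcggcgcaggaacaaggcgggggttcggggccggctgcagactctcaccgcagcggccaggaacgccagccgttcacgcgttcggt
SHMT1, chr17:18363501-18363800, minus strand: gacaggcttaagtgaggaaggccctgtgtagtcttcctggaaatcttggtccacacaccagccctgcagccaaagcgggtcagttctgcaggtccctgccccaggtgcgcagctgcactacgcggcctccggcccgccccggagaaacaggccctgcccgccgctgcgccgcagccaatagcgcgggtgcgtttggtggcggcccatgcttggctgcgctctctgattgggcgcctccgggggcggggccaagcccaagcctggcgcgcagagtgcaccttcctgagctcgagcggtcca

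ASNS holds TGATGAAA with its first base 68 bases before the start, and MTHFD1L holds TGATGCAA 129 bases before the start of the window printed. It stood in 1 of the 2 listed windows of ASNS and in 3 of the 4 of MTHFD1L. Such a match stood in 3.62% of all 35116 windows of the table. The PSAT1 and SHMT1 windows hold no match to these letters, and PHGDH and MTHFD2, not printed, hold none. The antioxidant response core TGACNNNGC was in 13.3% of all windows and, of the 10 genes, in that of MTHFD2. The E-box CACGTG was in 7.26% of windows and, of the 10 genes, in that of MTHFD1L, where it does not overlap TGATGCAA. A match is a description of these windows only.

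**Figure D1:**
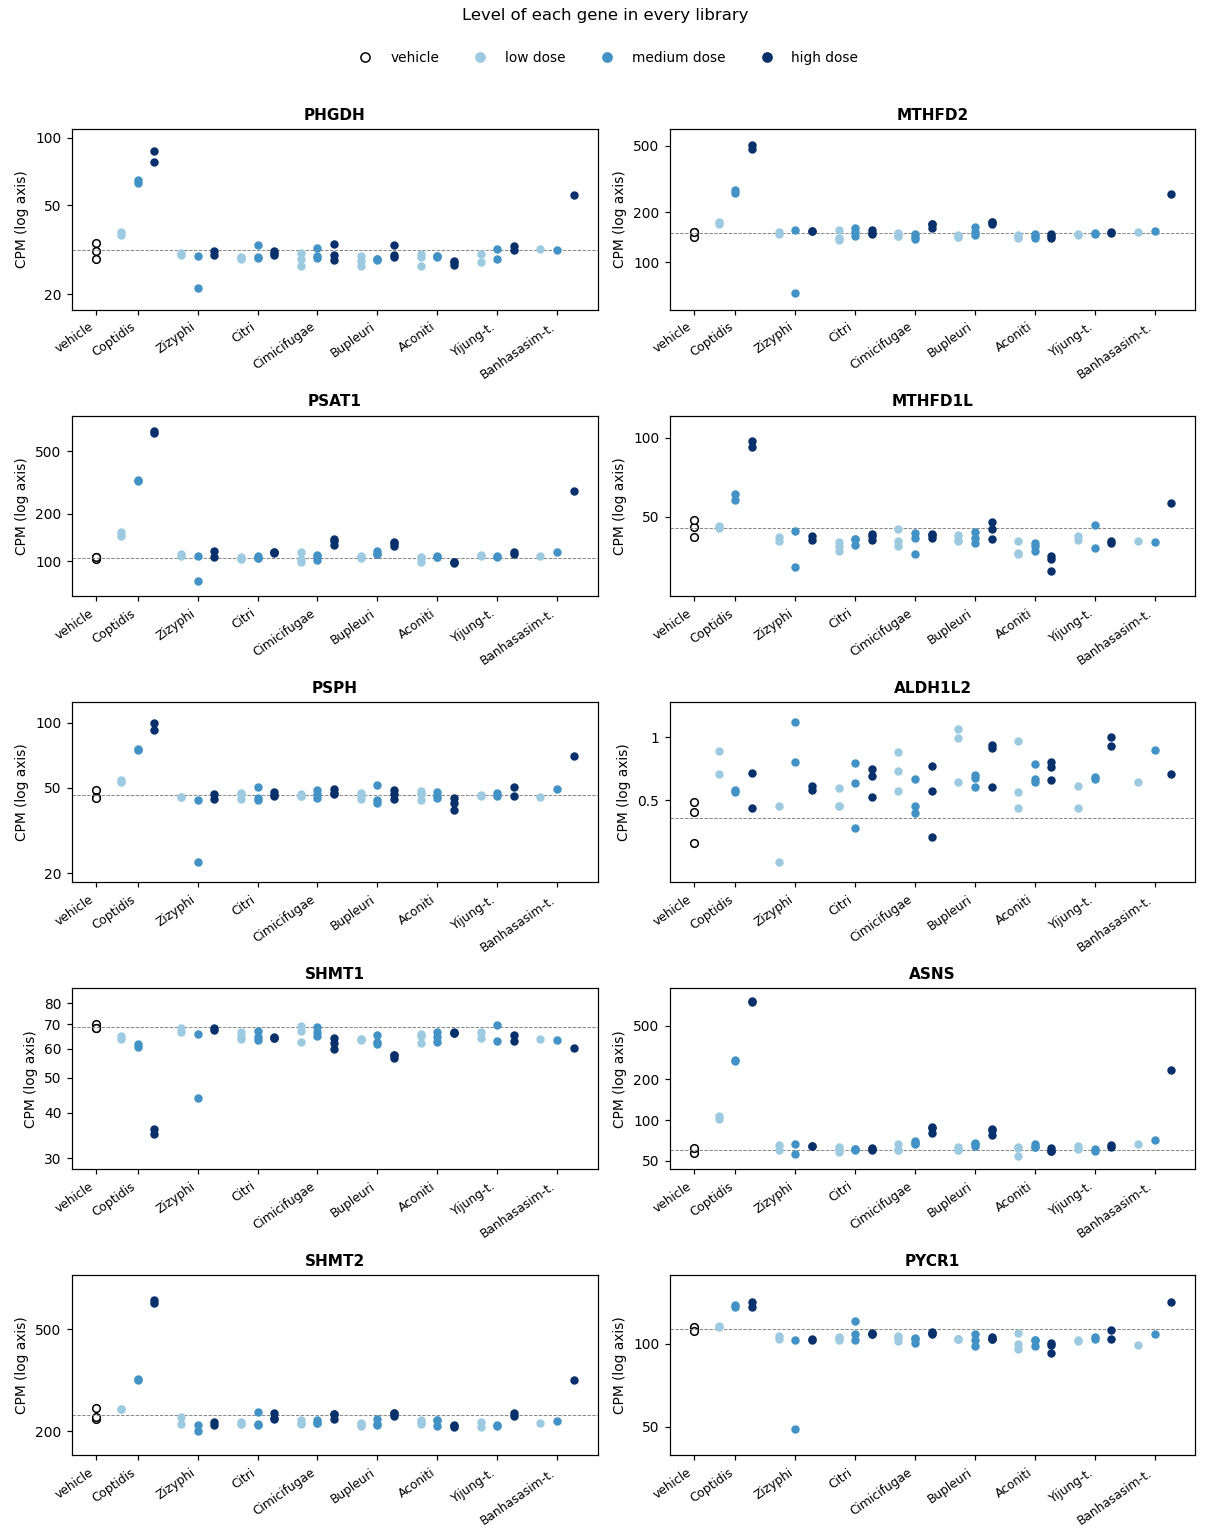
Level of each gene in CPM on a log axis, with each point a library, vehicle at the left and each extract's low, medium and high doses in that order. The dashed line is the vehicle mean. ASNS reached 753 and 757 CPM at the high dose of Coptidis Rhizoma, and the single low Zizyphi Fructus point at medium dose is replicate 3, for example 65.3 CPM for MTHFD2.

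The serine synthesis genes rose together with the dose of Coptidis Rhizoma. PHGDH (ENSG00000092621, GRCh38 chr1:119648411-119744226, plus strand), the enzyme of the first step, stood at 38.0 and 36.7 CPM at low, 62.6 and 64.9 CPM at medium and 78.1 and 87.5 CPM at high dose. The doses did not overlap, and both high-dose libraries lay above every other library in the series. Its log2 change was 1.15 ± 0.09 (SE) for high against low dose, with an adjusted p of 1.64e-14 in edgeR's quasi-likelihood test. PSAT1 (ENSG00000135069, chr9:78297143-78330093, plus strand), the transaminase of the next step, stood at 154 and 145 CPM at low, 324 and 327 CPM at medium and 651 and 673 CPM at high dose. That was 4.44-fold higher at high than at low dose, with an edgeR adjusted p of 2.92e-25. PSPH (ENSG00000146733, chr7:56011051-56051604, minus strand), the phosphatase that releases serine, changed less. It had 54.1 and 53.0 CPM at low, 74.5 and 75.8 CPM at medium and 92.8 and 100 CPM at high dose, a log2 change of 0.85 ± 0.12.

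The mitochondrial and cytosolic serine hydroxymethyltransferases moved in opposite directions. SHMT2 (ENSG00000182199, chr12:57229327-57234935, plus strand) stood at 244 and 243 CPM at low, 319 and 316 CPM at medium and 631 and 652 CPM at high dose of Coptidis Rhizoma. SHMT1 (ENSG00000176974, chr17:18327860-18363563, minus strand), which does the same reaction in the cytosol, stood at 64.8 and 63.7 CPM at low, 61.6 and 60.8 CPM at medium and 36.1 and 35.1 CPM at high dose. The log2 changes for high against low dose were 1.40 ± 0.05 for SHMT2 and -0.85 ± 0.08 for SHMT1, with edgeR adjusted p of 1.28e-25 and 3.10e-12. SHMT1 at this dose was the lowest of its 25 group means. Between medium and low dose SHMT1 differed by less than the test resolved, and its fall lay between medium and high dose, with a log2 change of -0.78 ± 0.08 there.

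The enzymes that carry the one-carbon unit onward in mitochondria also rose. MTHFD2 (ENSG00000065911, chr2:74198562-74217565, plus strand), the mitochondrial dehydrogenase and cyclohydrolase, stood at 169 and 175 CPM at low, 259 and 273 CPM at medium and 477 and 503 CPM at high dose. MTHFD1L (ENSG00000120254, chr6:150865549-151101887, plus strand), the synthetase that releases formate, stood at 45.4 and 46.0 CPM at low, 58.1 and 61.2 CPM at medium and 92.4 and 97.3 CPM at high dose. No dose overlapped another in either gene. They were 2.85-fold and 2.08-fold higher at high than at low dose, with edgeR adjusted p of 9.03e-12 and 5.96e-13. ALDH1L2 (ENSG00000136010, chr12:105019784-105084577, minus strand), which oxidises the unit, did not follow them. It had 0.667 and 0.860 CPM at low, 0.561 and 0.549 CPM at medium and 0.676 and 0.459 CPM at high dose, a log2 difference of -0.42 ± 0.34 with an edgeR adjusted p of 0.311.

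ASNS showed the largest change of the 10. This asparagine synthetase (ENSG00000070669, chr7:97852118-97872542, minus strand) stood at 108 and 102 CPM at low, 279 and 276 CPM at medium and 757 and 753 CPM at high dose of Coptidis Rhizoma. It was 7.20-fold higher at high than at low dose, a log2 change of 2.85 ± 0.07 with an edgeR adjusted p of 5.33e-31. PYCR1 (ENSG00000183010, chr17:81932384-81942412, minus strand), the proline enzyme, had 116 and 115 CPM at low, 138 and 136 CPM at medium and 136 and 142 CPM at high dose. Its high and medium libraries overlapped, and its log2 difference of 0.27 ± 0.12 between high and low dose did not pass the test (edgeR adjusted p = 0.057). The same difference passed without Zizyphi Fructus medium replicate 3 in the fit, at an adjusted p of 3.41e-06 in edgeR. It also passed with the size factors of DESeq2, in DESeq2 itself, without the filter, with mitochondrial genes left out and with only the groups compared in the fit.

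**Figure D2:**
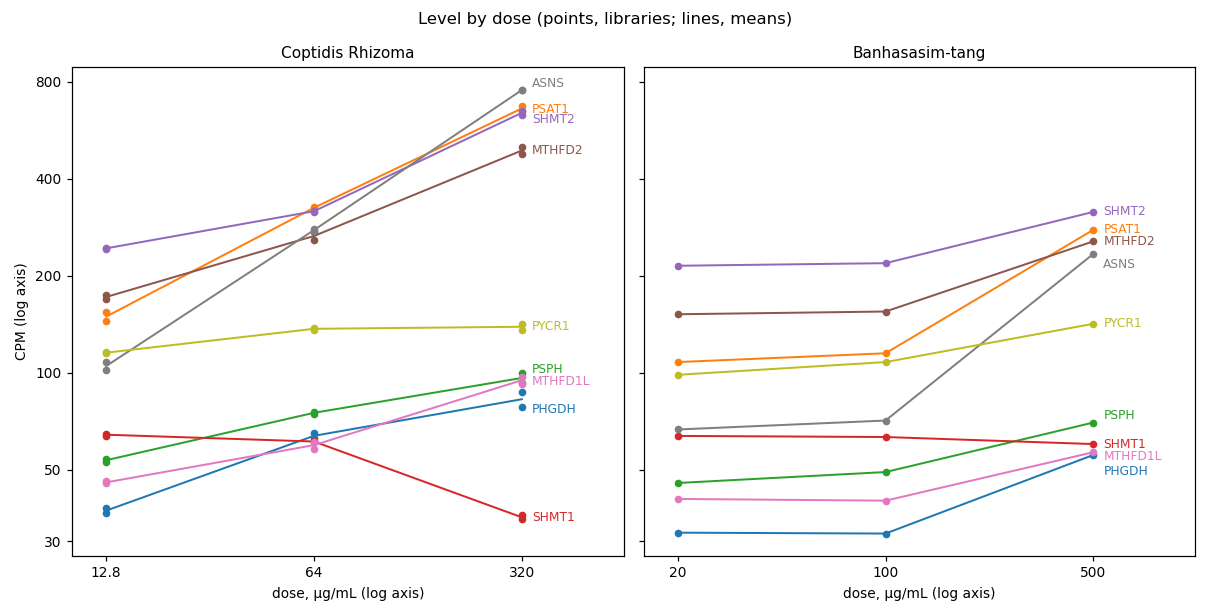
Level against dose on log axes for Coptidis Rhizoma (left, 2 libraries per dose) and Banhasasim-tang (right, 1 library per dose), with points for libraries and lines through means. ALDH1L2 is left out for its low level. ASNS and PSAT1 climb at each step of Coptidis Rhizoma, SHMT1 drops at its high dose to 36.1 and 35.1 CPM, and in Banhasasim-tang the low and medium doses lie close together.

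Between high and low dose of Coptidis Rhizoma, 7 of the 10 genes were higher and 1 was lower, with a median log2 change of 1.10. Of all genes tested, 27.8% were higher and 28.4% lower, with a median of -0.022. Without Zizyphi Fructus medium replicate 3, 8 were higher and 1 lower, beside 31.9% and 31.8% of all genes. In 7 genes every library at high dose exceeded every library at medium dose, and every one of those exceeded every library at low dose. SHMT1 showed the reverse order. The share of all genes with either order was not counted, so this describes the 10 genes only. Mitochondrial rRNA took 10.1%, 6.35% and 1.6% of counts at the low, medium and high dose of this extract, and 1.11% in vehicle. With the genes of the mitochondrial genome left out of counts and library sizes, 8 genes were higher and 1 was lower, PYCR1 being the one added.

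Most of these genes already differed at the medium dose of Coptidis Rhizoma. Comparisons of neighbouring doses, and of extracts at low dose, were added after values had been seen. Of the 10 genes 7 were higher at medium than at low dose and none was lower, with log2 changes from 0.38 for SHMT2 and for MTHFD1L to 1.40 for ASNS. Of all genes tested, 0.974% were higher and 0.374% lower in that comparison. The count was 8 without Zizyphi Fructus medium replicate 3, beside 2.51% of all genes higher and 1.42% lower. It was 4 when any single library of the medium or low dose was left out, since PSPH, MTHFD2 and MTHFD1L then missed the threshold at edgeR adjusted p of 0.068 to 0.258. PHGDH, PSAT1, SHMT2 and ASNS remained in each case. High against medium dose, 7 genes were higher and SHMT1 was lower, beside 26% and 26.7% of all genes.

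Even the lowest dose of Coptidis Rhizoma, 12.8 µg/mL, differed from the low dose of Zizyphi Fructus, 20 µg/mL, in the same library set. ASNS had 108 and 102 CPM with Coptidis Rhizoma, against 60.1 and 65.9 CPM with Zizyphi Fructus. PSAT1 had 154 and 145 CPM with Coptidis Rhizoma, against 112 and 109 CPM with Zizyphi Fructus. The extracts did not overlap in either gene, but how many of all genes had no overlap was not counted. The log2 differences were 0.74 ± 0.07 and 0.43 ± 0.08, with edgeR adjusted p of 2.49e-10 and 0.00156. These were 2 of the 10 genes, beside 0.131% of all genes higher and 0.0437% lower. PHGDH was the third without Zizyphi Fructus medium replicate 3, with a log2 difference of 0.31 and an edgeR adjusted p of 0.0416.

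**Figure D3:**
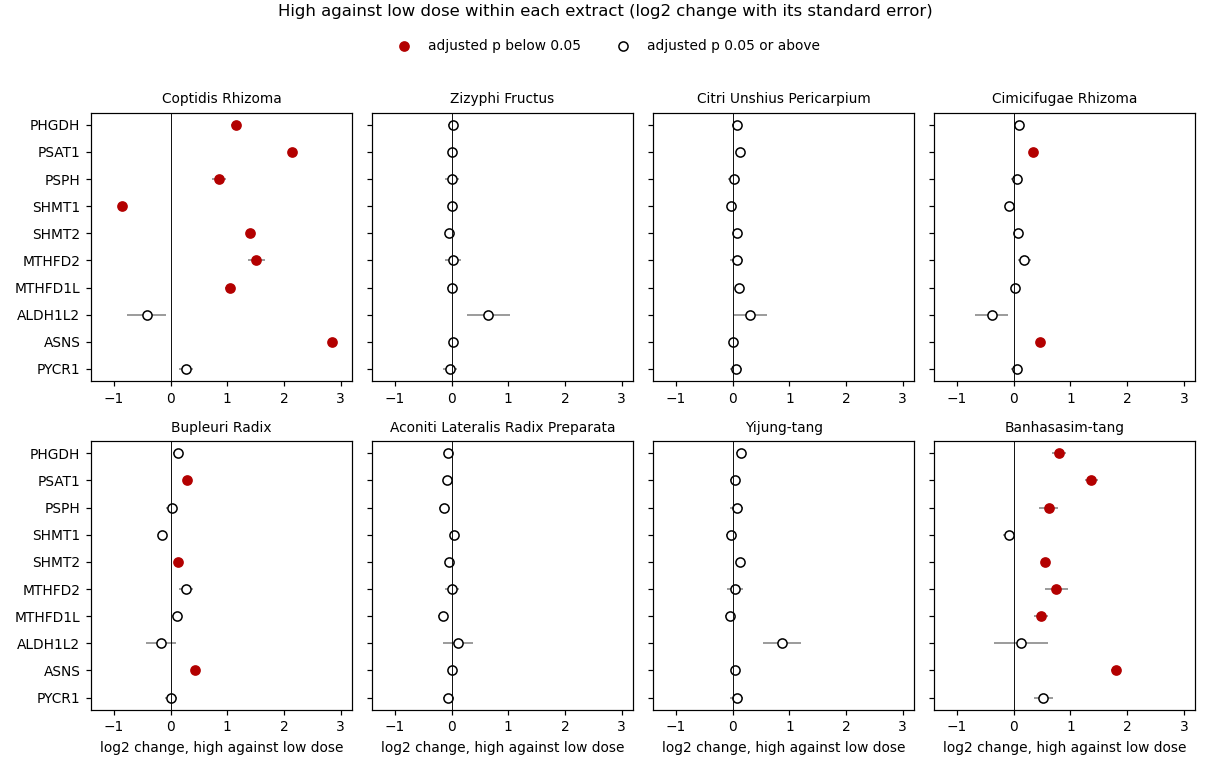
Log2 change for high against low dose of each extract, with bars of 1 standard error, and filled points where the edgeR adjusted p lay below 0.05. ASNS and PSAT1 are filled in 4 extracts, with ASNS at 2.85 for Coptidis Rhizoma, 1.81 for Banhasasim-tang, 0.46 for Cimicifugae Rhizoma and 0.43 for Bupleuri Radix.

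With Banhasasim-tang the same enzymes were higher at the high dose, from 1 library per dose. ASNS stood at 66.7 CPM at low, 71.1 CPM at medium and 234 CPM at high dose. PSAT1 had 108, 115 and 278 CPM and PHGDH 31.9, 31.7 and 55.6 CPM at low, medium and high dose. In both the low and medium libraries were close to each other and the high one stood apart. SHMT2 had 215, 219 and 316 CPM, MTHFD2 152, 155 and 256 CPM, MTHFD1L 40.6, 40.1 and 56.7 CPM and PSPH 45.5, 49.2 and 70.1 CPM, again in the order low, medium and high. SHMT1 had 63.7, 63.2 and 60.1 CPM, a log2 difference of -0.08 ± 0.11 between high and low dose (edgeR adjusted p = 0.955).

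The fit took the spread of Banhasasim-tang libraries to be that of the other groups. On that footing 7 of the 10 genes were higher at high than at low dose and none was lower, with a median log2 change of 0.59. Among all genes 1.04% were higher and 0.693% lower, with a median of 0.006. The log2 changes were 1.81 ± 0.09 for ASNS, 1.37 ± 0.11 for PSAT1, 0.80 ± 0.13 for PHGDH, 0.75 ± 0.20 for MTHFD2, 0.62 ± 0.17 for PSPH, 0.56 ± 0.07 for SHMT2 and 0.48 ± 0.13 for MTHFD1L. Of these, MTHFD1L, PSPH and MTHFD2 were close to the threshold, at edgeR adjusted p of 0.0424, 0.0373 and 0.0412, and MTHFD1L missed it without the filter (0.0504). PYCR1 had 142 CPM at high and 98.6 CPM at low dose, with an edgeR adjusted p of 0.167, and of 1.07e-06 without Zizyphi Fructus medium replicate 3. Then 8 genes were higher, beside 1.97% of all genes. Against the medium dose 4 genes were higher, ASNS, PSAT1, PHGDH and SHMT2, beside 0.518% of all genes higher and 0.218% lower. Mitochondrial rRNA took 1.11%, 2.07% and 10.2% of counts at low, medium and high dose, and with mitochondrial genes left out the same 7 genes passed.

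ASNS and PSAT1 were also higher, by small amounts, at the high doses of Cimicifugae Rhizoma and Bupleuri Radix. ASNS had 87.4, 88.3 and 79.9 CPM at high dose of Cimicifugae Rhizoma, against 66.5, 60 and 59.7 CPM at low dose. PSAT1 had 134, 139 and 128 CPM at high dose, against 114, 104 and 99.1 CPM at low dose. Neither gene's groups overlapped, and how many of all genes had no overlap was not counted. The log2 changes were 0.46 ± 0.05 and 0.34 ± 0.06, with edgeR adjusted p of 2.27e-07 and 0.000904. These 2 genes stood beside 0.437% of all genes higher and 0.437% lower. Without Zizyphi Fructus medium replicate 3, MTHFD2 joined them, with a log2 change of 0.19 (edgeR adjusted p = 0.00399).

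For Bupleuri Radix, ASNS had 85.7, 77.9 and 84.8 CPM at high dose, against 63.4, 60.3 and 60.5 CPM at low dose. PSAT1 had 130, 126 and 133 CPM at high dose, against 106, 105 and 108 CPM at low dose. SHMT2 had 236, 229 and 235 CPM at high dose, against 209, 213 and 215 CPM at low dose. High and low libraries did not overlap in any of the 3 genes, and the share of all genes without overlap was not counted. Their log2 changes were 0.43 ± 0.05, 0.29 ± 0.06 and 0.14 ± 0.04, and that of SHMT2 missed the threshold without high replicate 1 or 3 or low replicate 1 (edgeR adjusted p of 0.0541 to 0.0698) and without the filter (0.407). Of all genes 6.34% were higher and 6.59% lower.

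In the same extract SHMT1 and MTHFD2 did not pass in the fit of all libraries. MTHFD2 had 175, 171 and 174 CPM at high dose, against 142, 142 and 147 CPM at low dose, and SHMT1 had 57.5, 56.5 and 57.7 CPM at high dose, against 63.8, 63.7 and 63.4 CPM at low dose. The groups did not overlap in either gene, a description only, since the share of all genes without overlap was not counted. Their log2 differences of 0.27 ± 0.12 and -0.15 ± 0.06 had edgeR adjusted p of 0.141 and 0.11. Without Zizyphi Fructus medium replicate 3 they were 2.72e-06 and 0.000935. The count for Bupleuri Radix was then 4 higher and 1 lower, beside 11.8% and 10.8% of all genes.

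In edgeR and in DESeq2 alike, 0 of the 10 genes differed between high and low dose of Zizyphi Fructus, Citri Unshius Pericarpium, Aconiti Lateralis Radix Preparata and Yijung-tang. At an unadjusted p below 0.05 in edgeR the counts were 0, 1, 1 and 2 genes in that order. Over all 16022 genes tested those counts were 331, 1049, 1760 and 970. After adjustment, 0% of all genes passed for Zizyphi Fructus, 0.144% for Citri Unshius Pericarpium, 2.71% for Aconiti Lateralis Radix Preparata and 0.206% for Yijung-tang. ASNS had log2 differences of 0.03 ± 0.07, 0.01 ± 0.05, 0.01 ± 0.05 and 0.04 ± 0.07 in these extracts. Its libraries at high dose ran from 58.8 to 65.6 CPM over the 4 extracts, which lies close to 56.8 to 61.6 CPM in vehicle. SHMT2 with Yijung-tang had 236 and 230 CPM at high dose, against 208 and 217 CPM at low dose, with an edgeR adjusted p of 0.519. MTHFD1L with Aconiti Lateralis Radix Preparata averaged 33.7 CPM at high and 37.7 CPM at low dose, with an edgeR adjusted p of 0.444. PSAT1 with Citri Unshius Pericarpium averaged 114 CPM at high and 105 CPM at low dose, with an edgeR adjusted p of 0.75, and of 0.058 without Zizyphi Fructus medium replicate 3.

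At the medium dose of Zizyphi Fructus, 1 gene was higher and 5 were lower than at low dose, beside 18.7% and 12.8% of all genes. Those calls rest on replicate 3, since 0 genes passed without it, beside 0% of all genes. PYCR1 had 49.3 CPM in replicate 3 and 103 CPM in replicate 2, and MTHFD2 had 65.3 and 156 CPM in those libraries. The remaining medium doses, those of the Citri, Cimicifugae, Bupleuri and Aconiti extracts, Yijung-tang and Banhasasim-tang, had 0 of the 10 genes past the threshold against their low doses in edgeR. At an unadjusted p below 0.05 in edgeR the counts were 0 or 1, beside 326 to 712 of all 16022 genes. After adjustment, 0.025% of all genes passed for Banhasasim-tang, 0.00624% for Cimicifugae Rhizoma and 0% for the other 4 extracts.

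Against vehicle, the high dose of Coptidis Rhizoma had 8 genes higher and 1 lower, beside 30.9% and 32% of all genes. ASNS had 757 and 753 CPM with the extract, against 61.2, 56.8 and 61.6 CPM in vehicle, a 12.6-fold difference. PYCR1 had 136 and 142 CPM with the extract, against 114, 115 and 111 CPM in vehicle, a log2 change of 0.30 ± 0.11 that was lost without high replicate 3 (edgeR adjusted p = 0.095). For Banhasasim-tang 6 genes were higher, beside 4.94% of all genes higher and 2.67% lower, with ASNS 3.91-fold and PSAT1 2.63-fold above vehicle. The SHMT2 call for Banhasasim-tang was lost with only the groups compared in the fit, at a log2 change of 0.44. At the medium and the low dose of Coptidis Rhizoma 7 and 2 genes were higher than vehicle and none was lower. Of all genes 11.1% were higher and 8.44% lower at medium dose, and 3.83% higher and 2.29% lower at low dose. The 2 genes at low dose were ASNS and PSAT1, with log2 changes of 0.81 ± 0.06 and 0.50 ± 0.07. In the fit without Zizyphi Fructus medium replicate 3, 8 were higher and 1 lower at medium dose, beside 17.1% and 16.7% of all genes, and 5 were higher and 1 lower at low dose, beside 9.33% and 9.68%. ASNS and PSAT1 were higher for Cimicifugae Rhizoma, beside 10.3% of all genes higher and 7.7% lower.

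Bupleuri Radix at high dose had ASNS, PSAT1 and ALDH1L2 higher and SHMT1 lower than vehicle, beside 14.3% and 12.7% of all genes. SHMT1 had 57.5, 56.5 and 57.7 CPM with the extract, against 70.2, 68.4 and 68.3 CPM in vehicle, a log2 change of -0.27 ± 0.06. ALDH1L2 was also the only gene past the threshold for Yijung-tang, beside 4.66% of all genes higher and 2.98% lower. Its calls rest on few counts, and those for both extracts were lost without vehicle replicate 1, at edgeR adjusted p of 0.0732 for Bupleuri Radix and 0.0862 for Yijung-tang. With Yijung-tang the call was also lost without either high-dose library, and with Bupleuri Radix without high replicate 2 or 3 (edgeR adjusted p = 0.061 and 0.0756). Both calls were lost without the filter, at 0.0791 for Bupleuri Radix and 0.062 for Yijung-tang in edgeR. Aconiti Lateralis Radix Preparata had MTHFD1L and SHMT2 lower, beside 9.35% of all genes higher and 7.96% lower. MTHFD1L averaged 33.7 CPM with that extract, against 45.5 CPM in vehicle, a log2 change of -0.43 ± 0.08. The SHMT2 call was lost without vehicle replicate 1 (edgeR adjusted p = 0.135), without the filter (0.194) and with only the groups compared in the fit (0.0819). Zizyphi Fructus and Citri Unshius Pericarpium had 0 of the 10 genes past the threshold in edgeR, beside 6.9% and 13.2% of all genes. With an unadjusted p below 0.05 in edgeR they had 1 and 0, beside 3467 and 4371 of all 16022 genes. In DESeq2, 1 gene passed for Zizyphi Fructus. Single libraries moved the counts over all genes behind these shares. For Zizyphi Fructus 1106 genes passed, against 210 without vehicle replicate 1 and 91 without its own high replicate 3, and for Citri Unshius Pericarpium 2116 passed, against 458 without vehicle replicate 1.

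The counts against vehicle also differed in the fit without Zizyphi Fructus medium replicate 3. Of the 10 genes 8 were then higher and 1 lower for Banhasasim-tang, beside 9.64% and 9.17% of all genes. For Bupleuri Radix 4 were higher and 2 lower, beside 19.6% and 20.5%, and for Cimicifugae Rhizoma 3 were higher and 1 lower, beside 16.1% and 16.8%. For Aconiti Lateralis Radix Preparata 5 were lower, beside 17.2% of all genes lower and 15.1% higher. The lower counts for Banhasasim-tang, Bupleuri Radix and Cimicifugae Rhizoma lay near or below the shares over all genes. So did the remaining counts. They were 1 higher and 1 lower for Yijung-tang, beside 10.7% and 11.1%, 1 and 1 for Citri Unshius Pericarpium, beside 14.1% and 15.2%, and 2 lower for Zizyphi Fructus, beside 10.6% lower and 10.5% higher.

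Extracts that shared a library set were also set against each other at their high doses. Coptidis Rhizoma at 320 µg/mL had 8 genes higher and 1 lower than Zizyphi Fructus at 500 µg/mL, beside 28% and 28.8% of all genes. ASNS had 757 and 753 CPM with Coptidis Rhizoma, against 64.6 and 63.8 CPM with Zizyphi Fructus. Citri Unshius Pericarpium had 1 gene, ASNS, lower than Cimicifugae Rhizoma at the same dose, with 62.3, 60.2 and 60.9 CPM against 87.4, 88.3 and 79.9 CPM. Of all genes 0.175% were higher and 0.73% lower there. Bupleuri Radix at 310 µg/mL had 4 genes higher and 1 lower than Aconiti Lateralis Radix Preparata at 500 µg/mL, beside 10.2% and 10.9% of all genes. They were ASNS, PSAT1, MTHFD1L and SHMT2, with SHMT1 the lower one. SHMT2 and SHMT1 missed the threshold there without the filter (edgeR adjusted p = 0.17 and 0.0713). Yijung-tang had 7 genes lower than Banhasasim-tang, beside 1.1% of all genes lower and 0.468% higher. ASNS had 65.6 and 62.9 CPM with Yijung-tang, against 234 CPM with Banhasasim-tang, a log2 difference of -1.86 ± 0.08. Of these 7, PSPH and MTHFD2 missed the threshold without either Yijung-tang library, and MTHFD1L without replicate 2. Without Zizyphi Fructus medium replicate 3, 8 genes were higher and 1 lower with Bupleuri Radix than with Aconiti Lateralis Radix Preparata, beside 17.1% and 15.7% of all genes. In that fit 8 were lower with Yijung-tang than with Banhasasim-tang, beside 2.57% of all genes lower and 1.47% higher, and 2 were lower with Citri Unshius Pericarpium than with Cimicifugae Rhizoma, beside 1.43% lower and 0.693% higher.

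The change between high and low dose was itself compared between the extracts of a set. It was larger with Coptidis Rhizoma than with Zizyphi Fructus for 7 genes and more negative for SHMT1, beside 21% and 21.8% of all genes in those directions. Citri Unshius Pericarpium had a smaller change than Cimicifugae Rhizoma for ASNS, beside 0.181% of all genes, with 0.0187% in the other direction. Bupleuri Radix had a larger change than Aconiti Lateralis Radix Preparata for 3 genes, ASNS, PSAT1 and SHMT2, beside 4.59% of all genes, with 3.93% in the other direction. Yijung-tang had a smaller change than Banhasasim-tang for 4 genes, ASNS, PSAT1, PHGDH and SHMT2, beside 0.362% of all genes, with 0.0999% in the other direction. ASNS differed in each of the 4 pairs. The SHMT2 calls with Bupleuri Radix and with Yijung-tang missed the threshold without the filter (edgeR adjusted p = 0.506 and 0.531). The change without Zizyphi Fructus medium replicate 3 was larger for 5 genes and smaller for 1 with Bupleuri Radix, beside 9.54% and 7.45% of all genes. It was smaller for 8 with Yijung-tang, beside 0.761% of all genes, with 0.374% in the other direction.

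Across the 25 group means, the levels of the genes tracked one another to different degrees. These correlations are descriptions over groups that share library sets and include the 3 Coptidis Rhizoma doses and Zizyphi Fructus medium replicate 3, so values without that extract and without that library are given too. ASNS and PSAT1 had a Pearson correlation of log2 CPM of 1.00 over 25 groups and 0.98 over the 22 groups without Coptidis Rhizoma, and 1.00 and 0.99 without that library. PHGDH and SHMT2 had 0.94 and 0.95, with or without that library. PSPH and PYCR1 had 0.92 and 0.96, and 0.93 and 0.92 without it. ASNS and PYCR1 had 0.74 and 0.62, and 0.89 and 0.85 without it. SHMT1 and SHMT2 had -0.86 over 25 groups and -0.21 over 22, and -0.92 and -0.50 without it. Outside the 10 genes, those most like ASNS were CARS1, a cysteinyl-tRNA synthetase, at 0.988 over 25 and 0.949 over 22 groups, ADM2 and JDP2. For PHGDH they were PCK2, the mitochondrial phosphoenolpyruvate carboxykinase, at 0.983 and 0.939, CARS1 and GPT2. GPT2, a mitochondrial alanine transaminase, was the most like MTHFD2, at 0.992 and 0.968, followed by the tRNA synthetases MARS1 and YARS1. Among the levels most like those of SHMT1 were HES6, at 0.985 over 25 and 0.917 over 22 groups, and MRPL16, at 0.975 and 0.858. Over 22 groups without that library these were 0.869 and 0.736, while the values given for CARS1, PCK2 and GPT2 were 0.960, 0.949 and 0.957. All values over 22 groups include the high dose of Banhasasim-tang, which is 1 library. ASNS had 234 CPM there, against at most 85.2 CPM in the other groups without Coptidis Rhizoma. How far the values over 22 groups rest on that Banhasasim-tang library was not tested.

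The genes around these 10 enzymes did not all move with them. Of 17 tested genes of the folate cycle and glycine cleavage, 1 was higher and 13 were lower at high than at low dose of Coptidis Rhizoma, with a median log2 change of -0.44, beside 27.8% and 28.4% of all genes. FPGS, which retains folate in the cell, had 53.9 ± 1.7 CPM at high and 81.0 ± 1.5 CPM at low dose (SD, n = 2). ALDH1L1, the cytosolic counterpart of ALDH1L2, and SLC25A32, the mitochondrial folate carrier, had log2 changes of -0.54 ± 0.16 and -0.17 ± 0.07. MTHFD1 and TYMS, chosen after their values were seen, carry one-carbon units in the cytosol and make thymidylate. They had 61.2 ± 0.42 and 45.9 ± 1.1 CPM at high dose, against 146 ± 0.83 and 133 ± 5.1 CPM at low dose. With Bupleuri Radix 2 genes of the list were higher, FPGS and SLC25A32, and 2 lower, ALDH1L1 among them, beside 6.34% and 6.59% of all genes. In the other 6 extracts none of the 17 passed in edgeR.

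Several transporters of serine and glycine were higher at the same doses. Of 12 tested genes for their use and transport, 6 were higher and 4 lower at high than at low dose of Coptidis Rhizoma, beside 27.8% and 28.4% of all genes, so that the lower count was near that over all genes. With Banhasasim-tang and with Bupleuri Radix 3 were higher, beside 1.04% and 6.34% of all genes, and with Cimicifugae Rhizoma 1 was higher, beside 0.437%. SLC6A9, a glycine transporter, passed in all 4 extracts. It averaged 70.3 CPM at high and 1.73 CPM at low dose of Coptidis Rhizoma, and 6.06 CPM at high and 0.936 CPM at low dose of Banhasasim-tang. SLC38A2, a carrier of small neutral amino acids, had log2 changes of 1.60 ± 0.06 with Coptidis Rhizoma, 0.46 ± 0.04 with Bupleuri Radix and 0.42 ± 0.08 with Banhasasim-tang. SLC1A4, a serine and alanine carrier, had 1.88 ± 0.09 with Coptidis Rhizoma and 1.29 ± 0.14 with Banhasasim-tang. SPTLC1, a subunit of the enzyme that uses serine for sphingolipids, had 0.15 ± 0.04 with Coptidis Rhizoma and with Bupleuri Radix.

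In the methionine cycle and transsulfuration, 6 genes were tested, and 3 were higher and 1 lower with Coptidis Rhizoma, beside 27.8% and 28.4% of all genes. CTH, which releases cysteine from cystathionine, averaged 36.4 ± 1.7 CPM at high and 4.14 ± 0.0049 CPM at low dose. MTRR and MAT2B had log2 changes of 0.57 ± 0.06 and 0.43 ± 0.11, whereas MTR, methionine synthase, averaged 30.1 CPM at high and 60 CPM at low dose. None of the 6 passed in edgeR in the other 7 extracts. Of 12 tested genes of proline, aspartate and glutamine supply, 1 was higher and 7 were lower with Coptidis Rhizoma, beside the same shares. GLUL, which makes glutamine, passed in 5 extracts. Its log2 change was -0.54 ± 0.04 with Coptidis Rhizoma, -0.32 ± 0.04 with Bupleuri Radix, -0.28 ± 0.06 with Banhasasim-tang and -0.18 ± 0.04 with Cimicifugae Rhizoma, and 0.14 with Aconiti Lateralis Radix Preparata. GLUL was thus lower in each of the 4 extracts in which ASNS was higher. ALDH4A1, which breaks down proline, had 15.2 ± 1.4 CPM at high and 53.5 ± 1.3 CPM at low dose of Coptidis Rhizoma. ASRGL1, an asparaginase, was lower with Coptidis Rhizoma and with Bupleuri Radix, at -0.72 ± 0.09 and -0.22 ± 0.07. PRODH, the first enzyme of proline breakdown, had 0.154 ± 0.1 CPM at high and 0.632 ± 0.18 CPM at low dose, near the floor of detection.

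Of 13 genes listed as regulators, 10 were higher and 1 lower at high than at low dose of Coptidis Rhizoma, beside 27.8% and 28.4% of all genes. With Bupleuri Radix 7 were higher, beside 6.34% of all genes, and with Banhasasim-tang 5, beside 1.04%, and none passed in edgeR in the other 5 extracts. ATF4 averaged 415 ± 7.9 CPM at high and 286 ± 1.4 CPM at low dose of Coptidis Rhizoma. It averaged 274 ± 15 and 230 ± 8.2 CPM with Bupleuri Radix and had 386 and 238 CPM with Banhasasim-tang. Its log2 changes were 0.54 ± 0.06, 0.25 ± 0.05 and 0.70 ± 0.09. The changes of ATF4 were not compared between these extracts by a test. The stress-induced factors DDIT3 and ATF3 and the pseudokinase TRIB3 had log2 changes of 3.87 ± 0.13, 3.82 ± 0.16 and 3.17 ± 0.18 with Coptidis Rhizoma. They had 1.21 ± 0.11, 1.39 ± 0.14 and 0.76 ± 0.14 with Bupleuri Radix, and 0.73 ± 0.20, 1.43 ± 0.24 and 1.01 ± 0.25 with Banhasasim-tang. DDIT3 thus had the larger estimate with Bupleuri Radix and ASNS with Banhasasim-tang, in library sets that were not compared by a test.

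**Figure D4:**
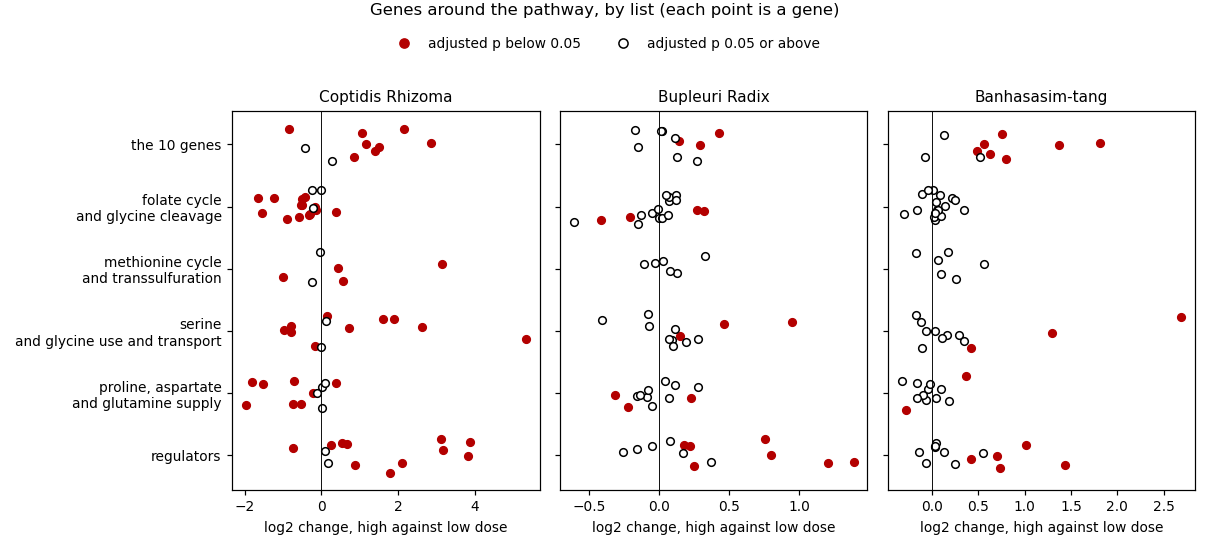
Log2 change for high against low dose of every tested gene of each list, for Coptidis Rhizoma, Bupleuri Radix and Banhasasim-tang, with filled points where the edgeR adjusted p lay below 0.05. The horizontal axes differ between the extracts, and the vertical spread within a list only separates points. For Coptidis Rhizoma most folate points lie left of 0, with a median of -0.44, while SLC6A9 lies farthest right at 5.33.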

How the data were processed

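The 60 libraries of HT29 cells were made from total RNA (1 µg, RIN above 7) by the MGIEasy RNA Directional kit, with paired ends of 100 bp, per the labels. RSEM 1.3.3, STAR 2.7.3a, FastQC 0.11.9 and Trim Galore 0.6.5 were used with GRCh38, per the submitters' processing notes. Not given in the sources used here are the gene annotation and the strand setting. The authors deposited estimated counts per gene, not scaled to depth. Of 270 columns, 210 were not analysed here. The values, 91.0% of them whole, were rounded, which changed a library's total by at most 0.00022%. Symbols matched 93.2% of identifiers, and coordinates come from GENCODE 29 (94.0% matched).

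Genes reaching 0.5 CPM in 3 or more libraries were fitted in edgeR 4.0.16 (R 4.3.3) with TMM scaling, a quasi-likelihood negative binomial model of 25 group means and 35 residual degrees of freedom. The p-values were adjusted by Benjamini and Hochberg over 16022 genes in each comparison, with a threshold of 0.05. Standard errors are the log2 change over the square root of F. A group with 1 library was assumed to vary like the others. Sequences were read from the RefSeq promoter table, taking a gene's first entry. The method was run on simulated data with the same spread setting for all genes, few changed genes and no outlying library. That run does not cover a library like Zizyphi Fructus medium replicate 3. Alternatives were other size factors, DESeq2 1.42.0, no filter, fewer libraries, a replicate block and mitochondrial genes left out. Floors cover counting error only.

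The members, lists and comparisons were chosen with earlier results of these data known. All 10 members were named. From each list up to 4 genes were named, those past the threshold in most extracts, with ties broken by the larger change with Coptidis Rhizoma. For 4 members the 3 genes of most similar group means, with a mean log2 CPM of at least 1, were named. Of the genes these rules chose, 2 are not reported here.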

Additional observations from a re-analysis of the deposited data

Results flagged for a closer look

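For 16 combinations of a gene and a pair of extracts, the high-against-low change differed between the extracts that share a library set, by the edgeR interaction test. Doses differ between Coptidis Rhizoma and Zizyphi Fructus and between Bupleuri Radix and Aconiti Lateralis Radix Preparata. Coptidis Rhizoma minus Zizyphi Fructus gave log2 differences of 2.82 for ASNS, 2.15 for PSAT1, 1.48 for MTHFD2, 1.44 for SHMT2, 1.13 for PHGDH, 1.04 for MTHFD1L, 0.84 for PSPH and -0.86 for SHMT1, with edgeR adjusted p of 6.07e-05 or lower. These were 7 genes upward and 1 downward, beside 21% and 21.8% of all genes. Citri Unshius Pericarpium minus Cimicifugae Rhizoma gave -0.44 for ASNS, beside 0.181% of all genes downward. Bupleuri Radix minus Aconiti Lateralis Radix Preparata gave 0.42 for ASNS, 0.36 for PSAT1 and 0.19 for SHMT2, beside 4.59% of all genes upward. The SHMT2 difference missed the threshold in 6 of the fits without 1 library of those groups, and without the filter (edgeR adjusted p = 0.506). Yijung-tang minus Banhasasim-tang gave -1.77 for ASNS, -1.32 for PSAT1, -0.65 for PHGDH and -0.43 for SHMT2, beside 0.362% of all genes downward. That for PHGDH missed the threshold without any single Yijung-tang library of the high or low dose, at edgeR adjusted p of 0.0595 to 0.197. That for SHMT2 missed it without the filter (edgeR adjusted p = 0.531). No group held more than 3 libraries, so single libraries were not tested for being extreme.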

How the results depend on the processing

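Across the alternatives, 983 of 1034 values of the 89 called log2 changes stayed past the threshold in the same direction, 51 missed it and 0 changed sign. With only the groups compared in the fit, the number of genes called out of 10 was 5 rather than 3 for Bupleuri Radix high against low dose, 9 rather than 5 for Bupleuri Radix against Aconiti Lateralis Radix Preparata and 6 rather than 3 for the difference of their changes, 8 rather than 4 for that of Yijung-tang and Banhasasim-tang, 2 rather than 1 for Citri Unshius Pericarpium against Cimicifugae Rhizoma, and 0 rather than 1 for Yijung-tang against vehicle. Over all genes those counts went from 2071 to 3704, 3381 to 5438, 1365 to 3128, 74 to 275, 145 to 247 and 1225 to 29, in that order. DESeq2 gave 1 rather than 0 for Zizyphi Fructus against vehicle, 0 rather than 1 for Yijung-tang against vehicle and 2 rather than 1 for Citri Unshius Pericarpium against Cimicifugae Rhizoma. Of all genes, DESeq2 called 794 higher and 623 lower, 816 and 651, and 37 and 137 in those comparisons. Without the filter, Yijung-tang against vehicle gave 0, beside 488 of all genes higher and 730 lower. The causes were not tested.

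With 1 library left out, counts ran from 4 to 8 for Coptidis Rhizoma medium against low dose and from 2 to 5 for Bupleuri Radix high against low dose. Against vehicle they ran from 1 to 5 for Aconiti Lateralis Radix Preparata, 2 to 4 for Cimicifugae Rhizoma, and 0 to 2 for Citri Unshius Pericarpium, Zizyphi Fructus and Yijung-tang. Between extracts they ran from 5 to 9 for Bupleuri Radix against Aconiti Lateralis Radix Preparata, 1 to 2 for Citri Unshius Pericarpium against Cimicifugae Rhizoma, and 4 to 8 for Yijung-tang against Banhasasim-tang. For differences of changes they ran from 2 to 6 for Bupleuri Radix and Aconiti Lateralis Radix Preparata and 3 to 8 for Yijung-tang and Banhasasim-tang. The upper ends came without Zizyphi Fructus medium replicate 3, where most counts over all genes grew too, as given below. The low end for Aconiti Lateralis Radix Preparata came without vehicle replicate 1, and that of 4 for Yijung-tang against Banhasasim-tang without Yijung-tang high replicate 2.

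With the replicate block, 5 rather than 7 genes passed for Banhasasim-tang high against low dose, as MTHFD2 and MTHFD1L had adjusted p of 0.0618 and 0.0523 in edgeR, and 7 rather than 6 passed against vehicle. The other counts of these genes were as without it. In 4 extracts with 3 libraries per dose, deviations of 12 same-numbered pairs at high and low dose correlated at -0.02 to 0.13, so the numbers were not taken to pair libraries. Of these, 10 correlated best with their own number, a hint from the data. Counts over all genes were more variable: in 17 of 24 comparisons they moved by over 1.5 times when the groups compared were fitted alone, such as 122 rather than 1218 for Banhasasim-tang against vehicle and 3704 rather than 2071 for Bupleuri Radix high against low dose. Leaving out 1 library of the groups compared moved 37 of 136 such counts by over 1.5 times, 35 of them downward. They grew by over 1.5 times in 19 of 25 comparisons without Zizyphi Fructus medium replicate 3. High against low dose of Banhasasim-tang could not be fitted alone, since 1 library per dose leaves no residual degrees of freedom. Depth limits ALDH1L2, at 6 to 30 counts per library.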
